A study of Mus musculus with 6 samples.

Results

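The interleukin-1 (IL-1) cytokines and inflammasome components are a set of 10 genes, taken by gene symbol. The list was chosen with earlier results of these data known, so it got no test of its own. They are the ligands Il1a, Il1b and Il1rn, the receptor genes Il1r2 and Il1rap, and the inflammasome genes Nlrp3, Pycard, Casp1, Casp4 and Gsdmd. The array carried 18 probe sets for these 10 genes, out of 45037 non-control probe sets and 18193 named genes. Each gene was represented by its brightest probe set, and all 10 passed the filter on low signal, a mean log2(signal + 16) of 5.90, which left 10960 genes for testing.

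The arrays measured neutrophils from the blood of 3 wild-type and 3 phd3 null mice, all of the C57 background, each array from 1 mouse. The cells of every mouse were purified by negative magnetic selection and held in hypoxia, at 3% oxygen for 4 h, so hypoxia was common to all 6 arrays and the groups differ in genotype. PHD3 is a prolyl hydroxylase that uses oxygen and is now named EGLN3. Neither the construction of the null allele nor the age and sex of the mice was given in the labels. The question is whether the IL-1 and inflammasome genes of hypoxic neutrophils differ in level without PHD3.

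IL-1α and IL-1β are inflammatory cytokines that signal through a receptor complex whose accessory chain is encoded by Il1rap. Il1rn encodes a ligand that occupies the receptor without signalling, and Il1r2 a decoy receptor without a signalling domain. IL-1β is made as an inactive precursor, usually after a priming signal through NF-kB. The sensor NLRP3, the adaptor ASC (encoded by Pycard) and caspase-1 assemble into the inflammasome, in which caspase-1 cleaves the precursor and the pore-forming protein gasdermin D. The caspase encoded by mouse Casp4, also known as caspase-11, binds bacterial lipopolysaccharide and cleaves gasdermin D directly. These steps act largely on protein, whereas the arrays measured RNA only.

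The RefSeq promoter table of assembly GRCm38.p6 held 13 start sites for 9 of the 10 genes, with none for Gsdmd. The 250 bases before the start are printed for 6 genes, 5′ to 3′ on the strand of the gene. Il1a, Il1b and Il1rn are shown as the ligands, whose signals were highest on the same array, as were those of Il1rap and Nlrp3, which are not printed. Il1r2 is shown because its signal was highest in samples 3, where those of the ligands were lowest within each genotype. The neighbours Casp1 and Casp4 are shown because their pair differences were unlike. Capitals mark matches, on either strand, to 5 motifs. They are the core promoter string TATAAA, the AP-1 site TGANTCA, the PU.1 site GAGGAA, the hypoxia response core ACGTG and the NF-kB consensus.
Il1a, chr2:129309973-129310222, minus strand: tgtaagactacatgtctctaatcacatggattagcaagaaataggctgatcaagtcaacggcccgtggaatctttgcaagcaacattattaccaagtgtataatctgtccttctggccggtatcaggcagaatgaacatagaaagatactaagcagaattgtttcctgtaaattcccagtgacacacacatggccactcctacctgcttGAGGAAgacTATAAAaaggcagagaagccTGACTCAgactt
Il1b, chr2:129371140-129371389, minus strand: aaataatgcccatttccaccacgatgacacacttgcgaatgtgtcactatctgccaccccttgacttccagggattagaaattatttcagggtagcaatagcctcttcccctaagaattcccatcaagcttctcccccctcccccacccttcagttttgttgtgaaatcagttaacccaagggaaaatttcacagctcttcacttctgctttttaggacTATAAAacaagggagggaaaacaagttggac
Il1rn, chr2:24336610-24336859, plus strand: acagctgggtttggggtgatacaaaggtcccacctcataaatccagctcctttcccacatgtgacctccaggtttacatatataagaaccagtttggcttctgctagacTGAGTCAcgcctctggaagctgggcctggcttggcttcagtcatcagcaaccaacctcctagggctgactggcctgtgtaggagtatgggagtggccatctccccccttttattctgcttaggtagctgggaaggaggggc
Il1r2, chr1:40085843-40086092, plus strand: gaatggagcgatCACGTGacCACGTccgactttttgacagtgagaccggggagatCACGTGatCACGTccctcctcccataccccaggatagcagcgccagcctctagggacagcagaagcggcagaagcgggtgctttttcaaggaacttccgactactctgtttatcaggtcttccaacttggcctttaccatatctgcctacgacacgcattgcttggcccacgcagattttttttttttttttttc
Casp1, chr9:5298267-5298516, plus strand: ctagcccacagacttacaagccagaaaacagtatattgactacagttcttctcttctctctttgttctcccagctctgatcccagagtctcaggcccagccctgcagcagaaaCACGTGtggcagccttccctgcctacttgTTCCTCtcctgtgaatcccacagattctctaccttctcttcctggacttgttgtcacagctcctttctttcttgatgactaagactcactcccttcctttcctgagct
Casp4, chr9:5308599-5308848, plus strand: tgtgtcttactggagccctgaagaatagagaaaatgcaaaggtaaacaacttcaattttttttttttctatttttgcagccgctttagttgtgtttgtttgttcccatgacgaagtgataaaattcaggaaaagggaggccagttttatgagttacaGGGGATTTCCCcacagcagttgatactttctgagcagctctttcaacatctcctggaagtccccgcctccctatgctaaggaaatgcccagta

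Both IL-1 agonist genes had TATAAA close to the start, from -32 to -27 in Il1a and from -31 to -26 in Il1b, a string found in 12.4% of the 32851 RefSeq windows of this length. Il1a also held TGACTCA from -12 to -6 and Il1rn TGAGTCA from -141 to -135, against 6.75% of windows with TGANTCA. In Il1r2 the hypoxia response core began at -238, -230, -195 and -187, and the matches at -238 and -195 lie in CACGTG, which reads the same on both strands. One such CACGTG began at -137 in Casp1, and 16.6% of windows held the core. The NF-kB consensus matched Casp4 in 2 overlapping frames that began at -93 and -92, and 3.9% of windows held it. Il1b and the printed Il1rn window held no NF-kB match, which speaks only for these letters in these windows. GAGGAA, in 23.3% of windows, matched Il1a from -41 to -36 and, on the other strand, Casp1 from -108 to -103. Among the windows not printed, an Nlrp3 window held an NF-kB match that began at -186 and a hypoxia response core at -63. Il1rap held the core at -218, and another Nlrp3 window and Pycard held GAGGAA.

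The targeted gene bore out the labels. By the brighter probe set of Egln3, phd3 null signals were 29.6 to 87.2 and wild-type signals 327.0 to 2088.0. Median signals ran from 49.4 to 64.2 over the 6 arrays. Samples 3 of both genotypes correlated least with the other arrays, with a median r of 0.740 for the phd3 null one and 0.771 for the wild-type one, where the other 4 arrays had 0.794 to 0.812. Same-numbered samples of the genotypes share a source code in the labels and were treated as pairs. Every difference below is phd3 null minus wild type after taking log2(signal + 16), so differences between dim signals are compressed.

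Of the neutrophil markers 8 were measured. S100a8, a calprotectin subunit that monocytes also make, was bright on all 6 arrays, at 11102.8 to 25479.7, and with S100a9 made up most of the summed signal. That sum was 58314.5, 47291.0 and 43487.5 across wild-type samples 1 to 3, against 42421.9, 51847.1 and 25532.9 in the phd3 null samples, lowest in sample 3 of each genotype. Several other markers of the list were low in phd3 null sample 3. The chemokine receptor gene Cxcr2 was at 25.6 there, against 840.1 and 978.9 in the other phd3 null samples and 227.0 to 836.6 in wild type. Both samples 3 had the lowest signals of the 6 arrays for Cxcr2, Csf3r, Mmp8 and Itgam, but not for S100a8, S100a9, Mmp9 and Lcn2. Mmp9 was at 336.9 and 340.8 in samples 3 (phd3 null and wild type) and lowest in wild-type sample 2, at 254.3. Lcn2 was at 1341.0 in wild-type sample 3, against 894.5 in wild-type sample 2. The neutrophil list was thus uneven over the arrays. Several monocyte and macrophage markers were also bright. Csf1r, which encodes the CSF-1 receptor of monocytes, was at 11088.3, 10045.5 and 4048.6 across wild-type samples 1 to 3, against 8835.9, 10857.8 and 3537.6 in the phd3 null samples. Summed over 8 measured markers, the monocyte signal was 17962.9, 17855.8 and 6062.5 across wild-type samples 1 to 3, against 18539.3, 19170.7 and 5171.0 in the phd3 null samples, low in both samples 3. Csf1r and F13a1 made up most of that sum. These 2, Adgre1 and Cd68 were lowest in both samples 3, but the rest of the list was not. Ms4a7 was highest in phd3 null sample 3, at 136.2. In wild-type sample 1 Ccr2 and Cx3cr1 were at 284.2 and 297.8, below wild-type sample 3, at 385.4 and 361.1. C1qa, a macrophage marker, was at 2.70 to 11.0 on every array. B cell markers went the other way, with sums over 5 markers of 5846.3 and 4633.9 in samples 3 (phd3 null and wild type) against 262.2 to 883.3 elsewhere. NK cell sums over 6 markers were 1287.9, 5562.4 and 2946.8 across wild-type samples 1 to 3, against 443.2, 2612.2 and 2028.4 in the phd3 null samples, lower in phd3 null in each pair. T cell sums over 5 markers were 164.3 to 468.8 in phd3 null and 115.4 to 366.6 in wild type. Platelet sums were 218.8 to 447.6 and 243.3 to 358.9, eosinophil and basophil sums 130.0 to 191.8 and 132.2 to 477.0, dendritic cell sums 230.7 to 517.5 and 270.2 to 326.7, and red cell sums 588.8 to 6390.0 and 2375.9 to 5606.8, each in phd3 null and wild type.

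**Figure D1:**
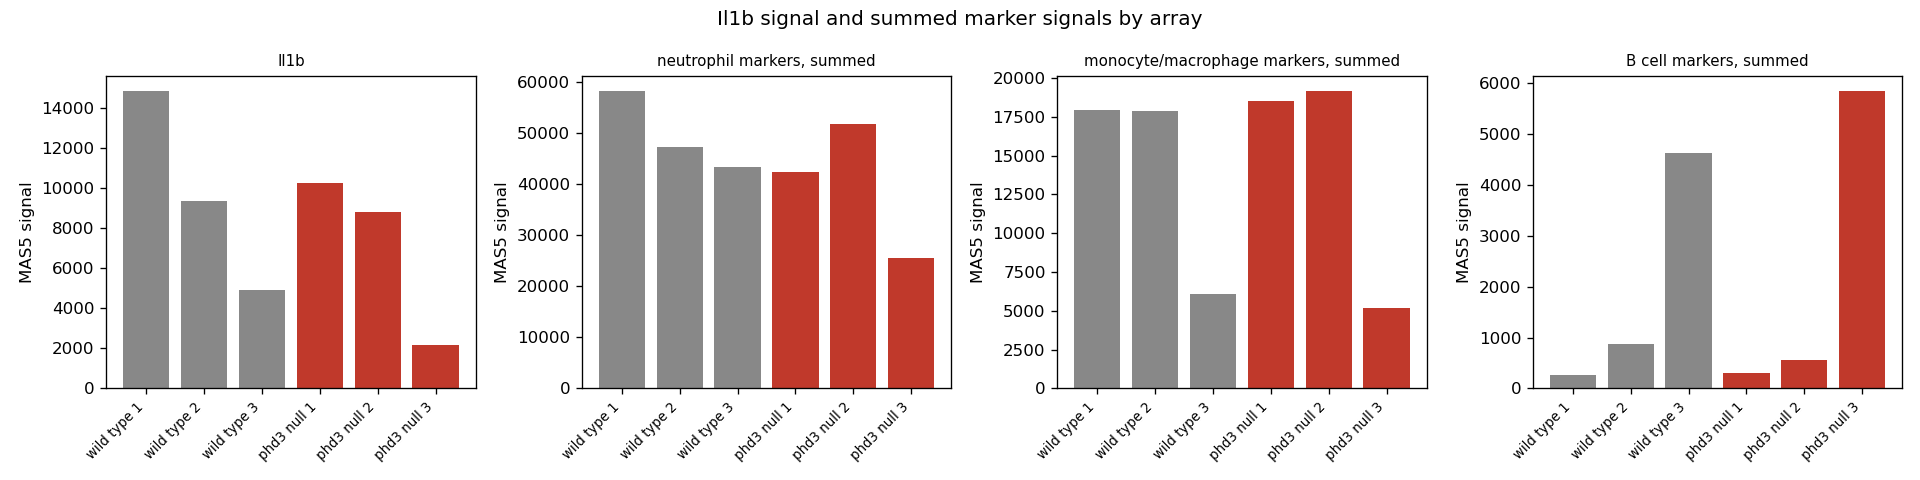
MAS5 signal of Il1b and summed MAS5 signal of the measured neutrophil, monocyte/macrophage and B cell markers (linear axes from 0), 1 bar per array, wild type in grey and phd3 null in red. Samples 3 of both genotypes have the lowest Il1b and monocyte marker signals and the highest B cell marker signals of the 6 arrays.

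No member was called by the test over all genes. In the fit of genotype alone no gene was called, not even the targeted Egln3, at -3.85 by its brighter probe set. A change in a member can therefore go uncalled. In limma with Benjamini-Hochberg adjustment over 10960 genes, 0 of the 10 members passed an adjusted p of 0.05, where 0% of all genes tested passed, and 0 of the 10 had an unadjusted p under 0.05, against 1.74% of all genes. With the sample number as a block, 0 members passed (0.0182% of all genes did) and the adjusted p ran from 0.817 for Il1rn to 0.9993 for Pycard. In that fit 3 of 10 members, Il1b, Il1rn and Nlrp3, had an unadjusted p under 0.05, where 5.62% of all genes did. Il1b, Il1rn and Nlrp3 followed each other across the arrays and are not independent counts. Their p-values rest on a spread that limma draws toward a trend over all genes, not on the 3 pairs alone. When limma with the block was run over every non-control probe set, the unadjusted p of Il1b was 0.0588. There Nlrp3 had 0.0220 and the brightest Il1rn probe set 0.00445, while the less bright Il1rn probe sets had 0.0512 and 0.0715. Each of these had an adjusted p of 0.933 in limma. The groups overlapped for all 10 members, and did not overlap for 6.92% of genes tested.

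The estimates nonetheless leaned low. Of 10 members 7 had a negative difference, against 50.6% of all genes, and the median was -0.40 against -0.01 over all genes tested. The median was -0.30 in pair 1, 0.06 in pair 2 and -0.83 in pair 3, so pairs 1 and 3 were below 0 and pair 2 was not. Without phd3 null sample 3 the median was -0.01, without wild-type sample 1 it was -0.099, and without both samples 3 it was -0.14. Leaving out 1 array kept its pair mate in a fit without the block, so differences between sample numbers entered the estimate. Differences below -0.5 were found for 5 members, Il1a, Il1b, Il1rn, Nlrp3 and Casp1, against 11.3% of all genes. Il1a, Il1b, Nlrp3 and Casp1 were lower in phd3 null in 3 of 3 pairs, as were 13% of all genes, and 0 members were higher in 3 of 3 pairs (12.6% of all genes). The NK cell markers were also lower in phd3 null, with a median of -0.97 over 6 markers. All 6 had a negative difference, 4 were lower in 3 of 3 pairs, and 0 passed an adjusted p of 0.05 in limma. An unadjusted p under 0.05 was found for 0 of the 6 without the block and for 4 with it. Their part in the members' estimates was not tested.

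**Figure D2:**
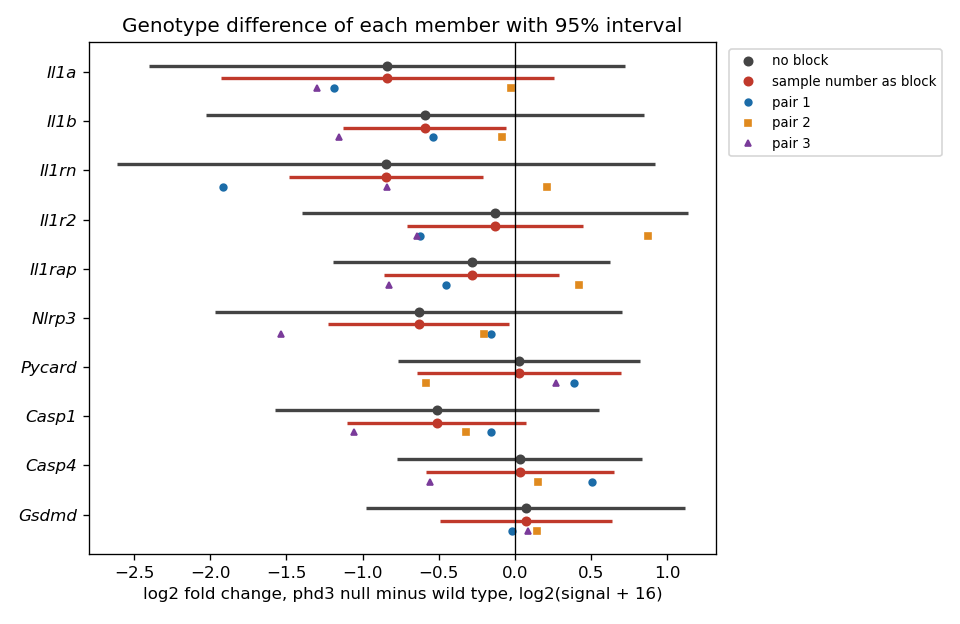
Difference of each member, phd3 null minus wild type, on the log2(signal + 16) scale (x axis), with the 95% interval without a block (dark) and with the sample number as a block (red), and the differences of pairs 1 to 3 as small symbols. All 10 dark intervals include 0, and the red intervals of Il1b, Il1rn and Nlrp3 lie below 0 before adjustment over genes.

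Among the ligands, Il1b encodes IL-1β, the main substrate of the inflammasome. Its signal was 14854.5, 9347.0 and 4892.9 across wild-type samples 1 to 3, against 10248.2, 8824.4 and 2185.9 in the phd3 null samples. Wild-type sample 1 was the highest array and phd3 null sample 3 the lowest, and the groups overlapped because wild-type sample 3 lay below phd3 null samples 1 and 2. The means were 7086 ± 4303 and 9698 ± 4990 (SD, n = 3), a difference of -0.59 (SE 0.64, 95% interval -2.03 to 0.85). Within pairs it was -0.53, -0.08 and -1.16, and with the block the interval was -1.13 to -0.06. The estimate of -0.59 moved when single arrays were left out and their pair mates kept. It was 0.11 without phd3 null sample 3, -0.21 without wild-type sample 1, and -0.31 without both samples 3. In these bulk samples fewer cells of a type and less RNA per cell cannot be told apart, and the part of the neutrophil, monocyte and B cell signals of samples 3 in the Il1b values was not tested.

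Il1a encodes IL-1α, which is active without caspase-1 cleavage, and its signal was dim. It was 174.8, 90.2 and 38.0 across wild-type samples 1 to 3, against 67.8, 88.3 and 5.90 in the phd3 null samples. As for Il1b, wild-type sample 1 was highest and phd3 null sample 3 lowest, and the groups overlapped. The means were 54.0 ± 42.9 and 101.0 ± 69.0 (SD, n = 3), a difference of -0.84 (SE 0.70, 95% interval -2.40 to 0.72), with -1.19, -0.03 and -1.30 in the 3 pairs. The size depended on the pseudocount, at -1.29 for a pseudocount of 1 and -0.47 for 64. It was -0.14 without phd3 null sample 3. Leaving out wild-type sample 1 gave -0.39, and leaving out both samples 3 gave -0.61.

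Il1rn, the gene of the IL-1 receptor antagonist, had an estimate close to that of Il1a, and it depended on single arrays. By its brightest probe set (1451798_at) the signal was 4294.1, 842.8 and 486.9 across wild-type samples 1 to 3, against 1127.5, 978.4 and 265.5 in the phd3 null samples. Wild-type sample 1 was 3.81 times the next highest array, while wild-type samples 2 and 3 lay within the range of the phd3 null values. The means were 790.5 ± 461 and 1875 ± 2103 (SD, n = 3), a difference of -0.85 (SE 0.79, 95% interval -2.61 to 0.92). Pairs 1 to 3 differed by -1.91, 0.21 and -0.84. With the block the interval was -1.48 to -0.21 (unadjusted p = 0.0121, adjusted p = 0.817 in limma over all genes). Without wild-type sample 1 the difference was 0.06, and without phd3 null sample 3 it was -0.21. Without both samples 3 it was -0.85.

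The high Il1rn signal of wild-type sample 1 was seen by all 3 probe sets of the gene. By 1423017_a_at it was 3426.2 against 271.9 to 872.1 on the other 5 arrays, and by 1425663_at it was 1036.7 against 149.5 to 239.6, or 3.93 and 4.33 times the next highest array. The 3 probe sets also gave like differences, of -0.85, -0.63 and -0.61. Pair 3 was less alike, at -0.84 by the brightest probe set and -0.05 and 0.03 by the others. Over the 6 arrays the brightest probe set correlated with the other probe sets at 0.976 and 0.932, a description over arrays that share hybridisation and scaling.

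**Figure D3:**
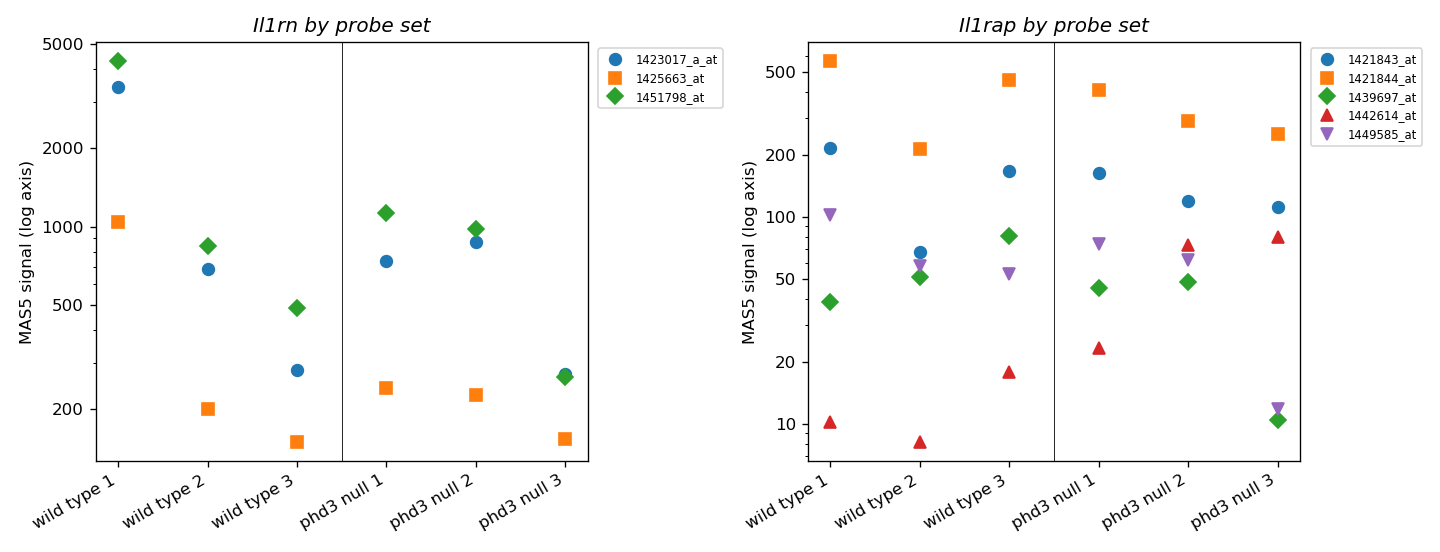
MAS5 signal (log axis) of each probe set of Il1rn (left) and Il1rap (right) by array, wild-type arrays left of the line and phd3 null arrays right of it. Wild-type sample 1 is highest by all 3 Il1rn probe sets, while probe set 1442614_at of Il1rap is dim and has its 3 highest signals in the phd3 null samples.

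Of the receptor genes, Il1r2, whose protein binds IL-1 without signalling, differed from the ligands in how samples 3 ranked. Its signal was 1129.8, 343.5 and 1860.6 across wild-type samples 1 to 3, against 727.1, 642.4 and 1187.2 in the phd3 null samples, highest in sample 3 of each genotype. The wild-type values enclosed all 3 phd3 null values. The means were 852.2 ± 293 and 1111 ± 759 (SD, n = 3), a difference of -0.13 (SE 0.56, 95% interval -1.40 to 1.14). Pair 2 differed by 0.87 and pairs 1 and 3 by -0.62 and -0.64, so no direction was shared.

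Il1rap encodes the accessory chain that IL-1 receptors need to signal. By its brightest probe set (1421844_at) the signal was 564.1, 212.3 and 456.7 across wild-type samples 1 to 3, against 408.7, 290.1 and 251.1 in the phd3 null samples. The phd3 null values again lay inside the wild-type range. The difference was -0.28 (SE 0.41, 95% interval -1.19 to 0.63), with pairs at -0.45, 0.42 and -0.82, and it was -0.01 without both samples 3 and -0.010 without wild-type sample 1.

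The 5 probe sets of Il1rap disagreed, and their mean gave -0.03. The other 4 gave differences from -0.59 to -0.06, but 1442614_at gave 1.33 (SE 0.65). Its signal was 10.2, 8.20 and 17.8 across wild-type samples 1 to 3, against 23.3, 73.0 and 80.4 in the phd3 null samples, and it was the only 1 of the 18 member probe sets whose groups did not overlap. Of all 45037 non-control probe sets 8.53% did not overlap. This probe set lay below the filter on low signal, its unadjusted p was 0.0592 (0.0678 with the block), and its adjusted p over all probe sets was 0.9997 in limma. The part of the transcript that it reads was not examined.

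Among the inflammasome genes, Nlrp3 encodes the sensor. Its signal was 718.3, 469.3 and 325.3 across wild-type samples 1 to 3, against 642.9, 405.7 and 101.6 in the phd3 null samples. Each wild-type sample was above the phd3 null sample of its number, and sample 3 was lowest in each genotype. The means were 383.4 ± 271 and 504.3 ± 199 (SD, n = 3), a difference of -0.63 (SE 0.59, 95% interval -1.97 to 0.70). Pairs 1 and 2 differed by -0.16 and -0.20 and pair 3 by -1.54. Without phd3 null sample 3 the difference was 0.09, without wild-type sample 1 it was -0.35, and without both samples 3 it was -0.18.

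Casp1, the gene of the caspase that cleaves the IL-1β precursor, had the same order within pairs. Its signal was 268.5, 421.9 and 205.5 across wild-type samples 1 to 3, against 239.1, 334.8 and 90.3 in the phd3 null samples. The phd3 null sample was the lower in each pair, yet phd3 null samples 1 and 2 lay above wild-type sample 3. The means were 221.4 ± 123 and 298.6 ± 111 (SD, n = 3), a difference of -0.51 (SE 0.47, 95% interval -1.58 to 0.55). Pair differences were -0.16, -0.32 and -1.06, and leaving out phd3 null sample 3 gave -0.01 and leaving out wild-type sample 2 gave -0.24.

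Casp4 lies next to Casp1 on chromosome 9 in the RefSeq table, with 0 genes between them. Its signal was 202.8, 216.7 and 195.1 across wild-type samples 1 to 3, against 294.9, 242.1 and 127.6 in the phd3 null samples. Wild-type samples were close together (204.9 ± 10.9, SD, n = 3), and the phd3 null samples lay on both sides of them (221.5 ± 85.5). The difference was 0.03 (SE 0.36, 95% interval -0.77 to 0.84), with 0.51, 0.15 and -0.56 in the 3 pairs, and -0.01 after quantile normalization.

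Gsdmd encodes gasdermin D, the pore that releases mature IL-1β. Its signal was 290.3, 280.7 and 113.0 across wild-type samples 1 to 3, against 286.3, 312.2 and 120.9 in the phd3 null samples. Same-numbered samples were close in each pair, at -0.02, 0.15 and 0.09, and both samples 3 were low. The difference was 0.07 (SE 0.47, 95% interval -0.98 to 1.12), and -0.49 to 0.64 with the block.

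Pycard encodes ASC, which links NLRP3 to caspase-1. By its brightest probe set (1417346_at) the signal was 109.4, 243.4 and 132.6 across wild-type samples 1 to 3, against 148.4, 157.5 and 163.1 in the phd3 null samples. The phd3 null samples were close together and the wild-type samples lay on both sides of them. The difference was 0.03 (SE 0.35, 95% interval -0.77 to 0.82), and -0.11 with array quality weights. The other 2 probe sets lay below the filter, between 1.40 and 61.7, and gave 0.77 and -0.44 (SE 0.56 for each), so they add no direction.

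**Figure D4:**
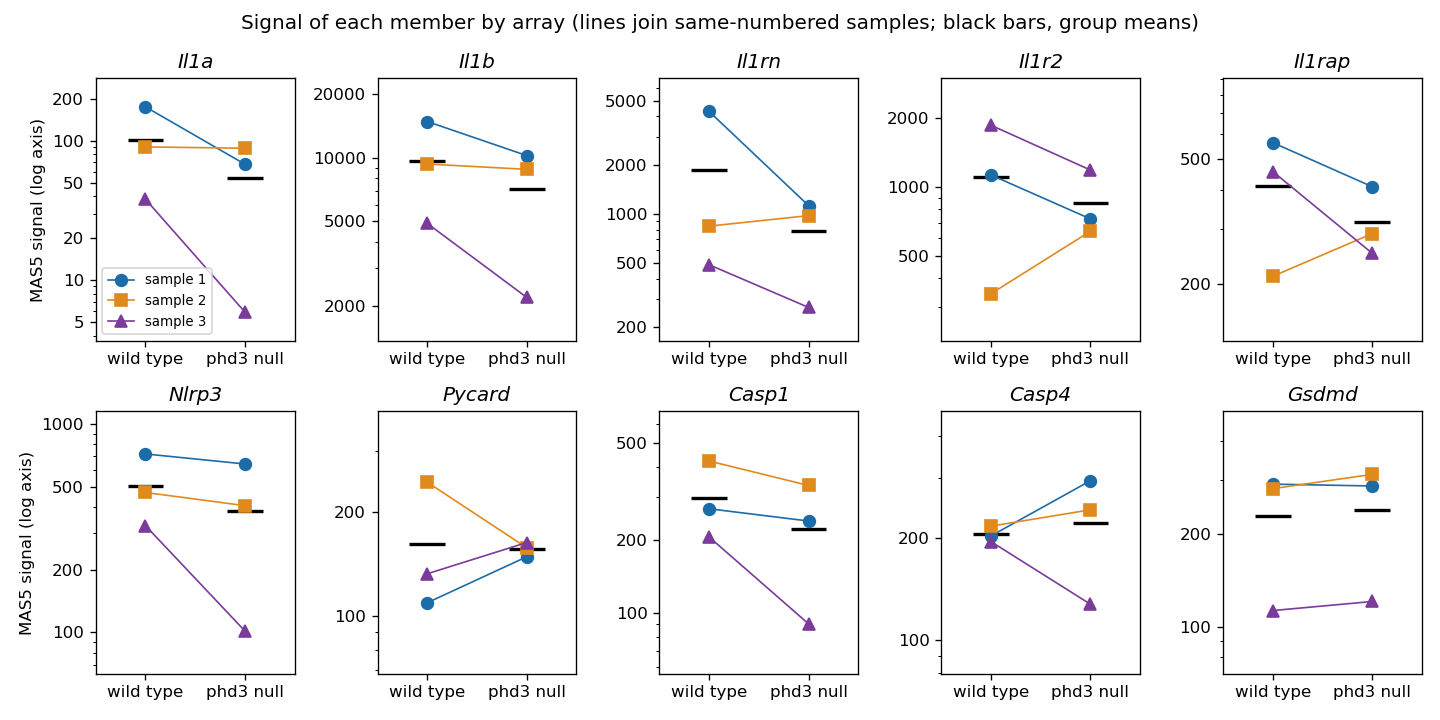
MAS5 signal (log axis, scaled for each gene) of the 10 members in wild-type and phd3 null samples. Lines join same-numbered samples, black bars are group means, and purple triangles are samples 3, which were below samples 1 and 2 in both genotypes for 7 of the 10 genes.

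Sample number took a larger share of the members' spread than genotype. The sum of squares of each gene over the 6 arrays was split into parts for genotype, for sample number and for the rest. The number took 54.0% (Pycard) to 99.3% (Gsdmd) of it, with a median of 74.0% over the members against 53.1% over all genes tested. Genotype took 0.17% (Pycard) to 18.5% (Il1a), with medians of 9.89% and 8.94%. Sample number has more levels than genotype, so its share is larger in part through the split itself, and the order was the same over all genes. The share for number was above the median of all genes in 10 of 10 members, several of which varied together. In 7 members (Il1a, Il1b, Il1rn, Nlrp3, Casp1, Casp4 and Gsdmd) sample 3 lay below samples 1 and 2 in both genotypes, as in 41.8% of all genes. Those 7 genes correlated with each other across the 6 arrays at 0.513 to 0.979 (21 pairs of genes, median 0.825). Several monocyte and neutrophil markers were low and B cell markers high on the same arrays, as given above, and their part in these levels was not tested.

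**Figure D5:**
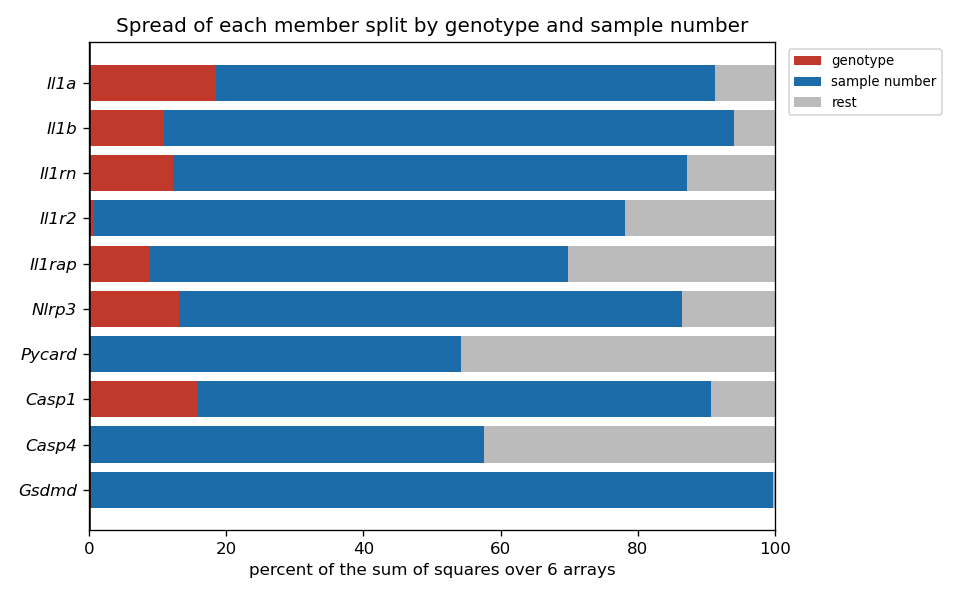
Share of the sum of squares of log2(signal + 16) over 6 arrays (x axis, percent) taken by genotype (red), sample number (blue) and the rest (grey) for each member. The blue part is above 50% for every member, and the red part is at most 18.5%.

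Several members shared an extreme array. Wild-type sample 1 was the highest array for 5 members, Il1a, Il1b, Il1rn, Il1rap and Nlrp3, against 15% of all genes. The lowest array was phd3 null sample 3 for 6 members, Il1a, Il1b, Il1rn, Nlrp3, Casp1 and Casp4, against 21% of all genes. These counts describe 2 arrays that weigh on the differences of the same genes.

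The genes closest to Il1b in pattern over the 6 arrays were Ppt2 (Pearson's r 0.999), Txnip (0.998), Ubap1 (0.996), Il1f9 (0.996) and Gnai3 (0.995), chosen as the 5 of highest r among all genes tested. Il1f9 encodes IL-36γ, another cytokine of the IL-1 family, and Txnip a thioredoxin-binding protein that has been reported to bind NLRP3. With 6 arrays of which 2 stood apart, high values are common, and 5.65% of genes tested had an r of 0.9 or more with Il1b. Among the members r with Il1b was 0.979 for Il1a, 0.975 for Nlrp3, 0.907 for Il1rn, 0.864 for Gsdmd, 0.830 for Casp1, 0.786 for Casp4, 0.408 for Il1rap, -0.155 for Pycard and -0.421 for Il1r2.

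The wider pathway gave no call in either fit. Of 12 genes of IL-1 receptor signalling 11 were found on the array and 9 tested, with 6 lower and 3 higher in phd3 null, a median of -0.16, and 0 passed. The genes of smallest p were Map3k7, which encodes the kinase TAK1 (-0.73, SE 0.31, unadjusted p = 0.0403 in limma), Irak1 (-0.44, SE 0.32) and the ubiquitin ligase gene Traf6 (0.56, SE 0.47). Map3k7 signal was 177.1, 217.6 and 155.1 across wild-type samples 1 to 3, against 92.0, 114.5 and 103.9 in the phd3 null samples. Its groups did not overlap, as for 3.02% of genes in this direction, and its adjusted p was 0.9996 without and 0.857 with the block in limma. Il1r1, the signalling receptor gene, was dim at 2.20 to 57.5 and was not tested.

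Of 12 other IL-1 family genes 10 were found and 8 tested, with 6 lower, 2 higher, a median of -0.30 and 0 passing. The 3 of smallest p were Il1f10, which encodes IL-38 (-1.25, SE 0.55), Il1f6, which encodes IL-36α (0.56, SE 0.34), and the IL-18 receptor gene Il18r1 (-1.03, SE 0.64). Il18, the other cytokine that caspase-1 cleaves, was at 175.8, 163.8 and 119.5 across wild-type samples 1 to 3, against 199.3, 237.6 and 46.7 in the phd3 null samples. These overlapped (difference -0.15, SE 0.51). Il1f9 was at 7483.2, 4146.1 and 1434.8 across wild-type samples 1 to 3, against 4175.6, 4304.5 and 458.8 in the phd3 null samples, with wild-type sample 1 highest and phd3 null sample 3 lowest, as for Il1b (-0.80, SE 0.87).

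Of 21 other inflammasome sensors and regulators 16 were found and 13 tested, with 6 lower, 7 higher, a median of 0.01 and 0 passing. Nlrp12, a NOD-like receptor gene that is expressed in myeloid cells, had the smallest p. Its signal was 14.5, 74.3 and 55.8 across wild-type samples 1 to 3, against 133.0, 208.9 and 80.3 in the phd3 null samples. Every phd3 null sample lay above every wild-type sample, as for 3.9% of genes, with a difference of 1.34 (SE 0.52, unadjusted p = 0.0278 and adjusted p = 0.9996 in limma, 0.787 with the block). Pstpip1, which encodes a partner of the inflammasome protein pyrin, differed by 0.67 (SE 0.32), and Naip2, a gene of the sensors of bacterial secretion systems, by -0.54 (SE 0.60). Of 6 neutrophil protease, inhibitor and membrane rupture genes 3 were tested, with 0 passing. Ctsg differed by 0.35 (SE 0.46), Gsdme, a gasdermin gene, by -0.16 (SE 0.63), and Ninj1, whose protein ruptures the membrane of dying cells, by -0.10 (SE 0.55).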

How the data were processed

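The deposited intensities of the 6 arrays are linear MAS5 signals, as named in the submitters' processing notes with no version. Scaling was part of the deposited values, whose mean after trimming 2% of probe sets at each end was 100.0 for each sample. Detection calls were not used. Precision is limited by the number of arrays. Without the block, p-values set a difference against the spread between 3 mice per genotype. With the block they set it against the spread of the pair differences. In both fits limma drew the spread of each gene toward a trend over all genes, so it is not the gene's own spread alone. Members, lists and tests were chosen with earlier results of these data known.

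Of 45101 probe sets, 64 controls were left out. Of the rest 34945 had 1 gene symbol, 932 several and 9160 none in the annotation table used. A gene took its probe set of highest mean log2(signal + 16), and genes with a mean below 5.90 were not tested. Genotypes were compared with limma 3.58.1 in R 4.3.3 (trend in the prior variance, two-sided, no block, Benjamini-Hochberg over 10960 genes), and each probe set also over all non-control probe sets. The code was checked on simulated data.

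Named genes were all members with every probe set, the 3 of smallest p in each pathway list (no gene passed), and the 5 most like Il1b. Other genes named (Il1r1, Il18 and the neutrophil and monocyte markers) and the values of Il1f9 were chosen after they were seen, apart from Egln3, the targeted gene. As deviations from the mean of each genotype, arrays 1, 2 and 3 correlated with their namesakes at 0.292, 0.151 and 0.474, and the numbers share source codes, so they were taken as pairs. Different numbers gave -0.363 to 0.177. List genes not matched to a probe set with 1 symbol, among them Irak4, Il1rl1, Il36rn, Nlrp1a, Nlrp1b, Nlrc4, Naip1 and Gbp5 of the pathway lists, were left out. The alternatives were pseudocount, quantile normalization, filter, probe set choice, trend, array weights, the replicate block and left-out arrays.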

Additional observations from a re-analysis of the deposited data

How the results depend on the processing

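No member passed under any of the 18 alternatives tried (0 of the members fitted in each), with adjusted p from 0.208 (Il1rn, replicate block without samples 3 of both genotypes) upward. Over all genes 0 passed without the block, against 2 with the replicate block, 1 with the block and quantile normalization, 46 with the block and without samples 3, and 1 without samples 3 and no block. Leaving out 1 array gave 0 to 1 genes, the 1 coming without wild-type sample 3. When 1 array was left out, the members' median lay between -0.60 (without wild-type sample 2) and -0.01 (without phd3 null sample 3). Under the others it ran from -0.51 to -0.14. The -0.51 came from the mean of all probe sets, where 9 members were fitted.

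Il1a, Il1rap and Casp1 kept their sign in all 18, though leaving out 1 array moved Il1a from -1.30 to -0.14, Il1rap from -0.68 to -0.010 and Casp1 from -0.88 to -0.015, and the mean of all probe sets gave Il1rap -0.032. Leaving out 1 array moved Il1b from -1.01 to 0.11, Il1rn from -1.49 to 0.058, Il1r2 from -0.81 to 0.38, Nlrp3 from -1.15 to 0.089, Pycard from -0.19 to 0.34, Casp4 from -0.20 to 0.36 and Gsdmd from -0.34 to 0.47. Other turns of sign were Il1r2 at 0.044 with array weights and 0.12 without samples 3 (with and without the block), Pycard at -0.11 with array weights and -0.095 without samples 3 (with and without the block), and Casp4 at -0.013 with quantile normalization (with and without the block). In the fits that left out 1 array, with no block, its pair mate stayed, so differences between sample numbers entered the estimate. The cause of each turn was not tested. Pycard averaged over its probe sets fell below the filter and was not tested there. Low signals limit Il1a and the dim probe sets of Pycard and Il1rap.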
